A study of Homo sapiens with 9 samples.

Results

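The genes described here belong to the sterol synthesis pathway and its control by the transcription factor SREBP2. They are SREBF2, INSIG1, HMGCS1, IDI1, FDPS, FDFT1, SQLE and LSS, and their members are all probes of the non-normalized array table whose gene symbol is one of these 8 names. The rule found 11 of 47310 probes, for 7 of the 20043 genes that have a probe with 1 symbol, and FDFT1 is not analysed here. The probes were measured in HEK293T, an established human embryonic kidney line, with 3 arrays in each of 3 groups. Cells of the first group received a pRK5 vector for LAV-BPIFB4, the longevity-associated form of BPIFB4, a member of the BPI fold family of lipid-binding proteins. The second group received the same vector for the wild-type form (WT-BPIFB4), and the third an empty plasmid. All 9 samples were transfected with Lipofectamine, a lipid reagent, and then starved of serum for 18 hours, beginning 24 hours after transfection, so that starvation and transfection are shared by the controls. The labels speak of triplicates but do not say whether these were separate cultures, and p-values therefore measure the spread between these samples, which may be technical.

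Cells make cholesterol from acetyl-CoA through the mevalonate pathway. SREBP2, the product of SREBF2, is held in the endoplasmic reticulum with its escort SCAP when sterols are plentiful, bound there by INSIG proteins. When membrane sterol falls, it is carried to the Golgi, cut by 2 proteases (MBTPS1 and MBTPS2 in the lists below) and enters the nucleus, where it binds sterol regulatory elements of the pathway's genes, usually beside sites for NF-Y and Sp1. INSIG1 is itself a target, and so is SREBF2.

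Arrays had median signals between 93.1 and 139 and detected between 18940 and 20658 probes, meaning a detection p-value under 0.05 against the negative controls of that array. All 9 arrays lay on 1 chip with each group in adjacent places, so group and place cannot be told apart. The single probe for BPIFB4 was detected on 0 arrays (detection p-value 0.474 to 0.896) and does not show whether the transfections worked. Of 8 markers of embryonic kidney or neural-like cells that this line can express, 6 were detected on at least 3 arrays, among them NEFL, NEFM and VIM, while PAX2 was detected on none. Of the markers of other cell types with a probe, 0 of 5 endothelial, 1 of 6 hepatocyte, 1 of 4 leukocyte, 1 of 5 fibroblast and 1 of 4 steroidogenic ones were detected on at least 3 arrays. In bulk RNA, fewer transfected cells and less change in each of them cannot be told apart.

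Promoter windows were matched to 6 of the 8 genes in the RefSeq table of GRCh38.p14, 9 windows in all, each reaching from 250 bases before a gene's start to 50 after it. They were searched on both strands for CACNCCAC, the core of the sterol regulatory element, for CCAAT, the NF-Y motif, and for GGGCGG, the core of the Sp1 motif. CACNCCAC was found in 3 of the 9 windows, those of INSIG1, IDI1 and SREBF2, and in 5.87% of all 35116 promoter windows. CCAAT was found in 7 of the 9 windows against 34.6% of all windows, and every gene of the 6 had it in at least 1 window. GGGCGG was found in 9 of 9 windows, against 45% of all. Related genes, in 5 lists described below, held GGGCGG in 75% to 81.2% of windows, above all promoters. CCAAT was in 64.7% of 17 windows of the other sterol synthesis genes. It was in 37.5% to 50% of those of the fatty acid, LXR and prenyl lists. The SREBP control and cholesterol transport list lay below all promoters for CCAAT, at 25% of 12 windows. CACNCCAC was in 0% to 12.5% of windows of the 5 lists. The stretches with CACNCCAC are shown for the 3 genes that carry it. Of these, INSIG1 and IDI1 were called lower below and SREBF2 was not called. SQLE, also called below, was not among the genes searched. Whether the motif bears on any change was not tested. For INSIG1 it is the whole 250 bases upstream of the start, chr7:155297628-155297877, plus strand, with CACNCCAC (here read on the opposite strand, at -208 to -201) and CCAAT (opposite strand, -170 to -166) in capitals. For IDI1, whose table holds 3 starts, it is chr10:1048983-1049012, minus strand, and for SREBF2 chr22:41832962-41832991, plus strand, with CACNCCAC in capitals at -115 to -108 (opposite strand) and at -132 to -125. A match describes the letters and shows no binding.
INSIG1: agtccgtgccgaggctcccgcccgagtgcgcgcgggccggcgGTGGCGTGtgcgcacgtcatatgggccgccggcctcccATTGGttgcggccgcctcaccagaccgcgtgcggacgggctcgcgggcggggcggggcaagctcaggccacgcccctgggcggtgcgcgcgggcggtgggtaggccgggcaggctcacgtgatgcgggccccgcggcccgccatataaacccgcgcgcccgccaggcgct
IDI1: ggccgggcgatGTGGCGTGgactggcgctg
SREBF2: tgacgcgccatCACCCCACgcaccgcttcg

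In cells with LAV-BPIFB4, 3 sterol genes were lower than in cells with the empty vector, and none of the 7 passed the test as higher. IDI1 fell 1.70-fold, INSIG1 1.55-fold at 1 of its 2 probes, and SQLE 1.34-fold and 1.38-fold at its 2 probes. HMGCS1, FDPS, LSS and SREBF2 did not pass the test. In all 4 of 11 probes were called lower and 0 higher (limma, Benjamini-Hochberg adjusted p under 0.05), where 7.72% of all 20914 tested probes were called in either direction, 4.08% lower and 3.64% higher. With WT-BPIFB4, 0 of 11 probes were called against the empty vector, where 1.07% of all probes were (0.464% lower, 0.607% higher), although 5 of the 11 had an unadjusted p under 0.05 and all 5 of those were lower, where 15.6% of all probes had such a p. Between LAV-BPIFB4 and WT-BPIFB4 0 of 11 were called and 0 had an unadjusted p under 0.05. The share of all probes called there was 0%, with 976 (4.67%) at an unadjusted p under 0.05. Leaving out LAV-BPIFB4 replicate 1 took the 4 calls to 0, while calls over all 20914 probes fell from 1615 to 524. Leaving out WT-BPIFB4 replicate 1 gave 2 calls with WT-BPIFB4, while calls over all probes rose from 224 to 1587. Treating equal replicate numbers as blocks gave 3 calls with WT-BPIFB4, and 829 over all probes. All 11 probes passed the filter on low values, which asked for detection on 3 or more of the 9 arrays.

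The regulators come first. SREBF2 has 1 probe, which was close to background. It read 6.04, 4.89 and 6.28 on the LAV-BPIFB4 arrays, 5.96, 6.03 and 5.14 on the WT-BPIFB4 arrays and 6.71, 5.98 and 4.73 on the empty vector arrays (normalized log2 intensity throughout). In each group 2 of 3 arrays detected it and the groups overlapped. Its log2 change was -0.07 ± 0.41 with LAV-BPIFB4 and -0.10 ± 0.41 with WT-BPIFB4 (SE of the fit). The 95% interval for LAV-BPIFB4, -0.93 to 0.79, is too wide to exclude a change of the size seen in IDI1. The level of the SREBP2 protein and its cleavage were not measured.

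INSIG1 makes the membrane protein that holds SCAP and SREBP2 in the endoplasmic reticulum. Its probe ILMN_1793474 read 11.31, 11.66 and 11.52 with LAV-BPIFB4, 11.73, 11.93 and 11.48 with WT-BPIFB4 and 11.96, 12.54 and 11.89 with the empty vector. Every LAV-BPIFB4 array lay below every empty vector array, and the WT-BPIFB4 arrays overlapped both. Its means were 11.50 ± 0.18 with LAV-BPIFB4, 11.71 ± 0.23 with WT-BPIFB4 and 12.13 ± 0.36 with the empty vector (SD, n = 3 each). The log2 change was -0.63 ± 0.15 with LAV-BPIFB4 (SE, limma adjusted p = 0.0157) and -0.42 ± 0.15 with WT-BPIFB4 (adjusted p = 0.184). The other probe, ILMN_1686989, was not called. It read 8.01, 8.84 and 8.16 with LAV-BPIFB4, 8.27, 8.80 and 8.31 with WT-BPIFB4 and 8.74, 8.54 and 8.46 with the empty vector, so its groups overlapped, and its change with LAV-BPIFB4 was -0.25 ± 0.20 (adjusted p = 0.495). The call of ILMN_1793474 was lost without LAV-BPIFB4 replicate 1 (adjusted p = 0.0899), LAV-BPIFB4 replicate 3 (0.0612) or empty vector replicate 2, the highest of the 9 arrays (log2 change -0.43, adjusted p = 0.0662). It was also lost with median scaling of the arrays (log2 change -0.32, adjusted p = 0.597).

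**Figure D1:**
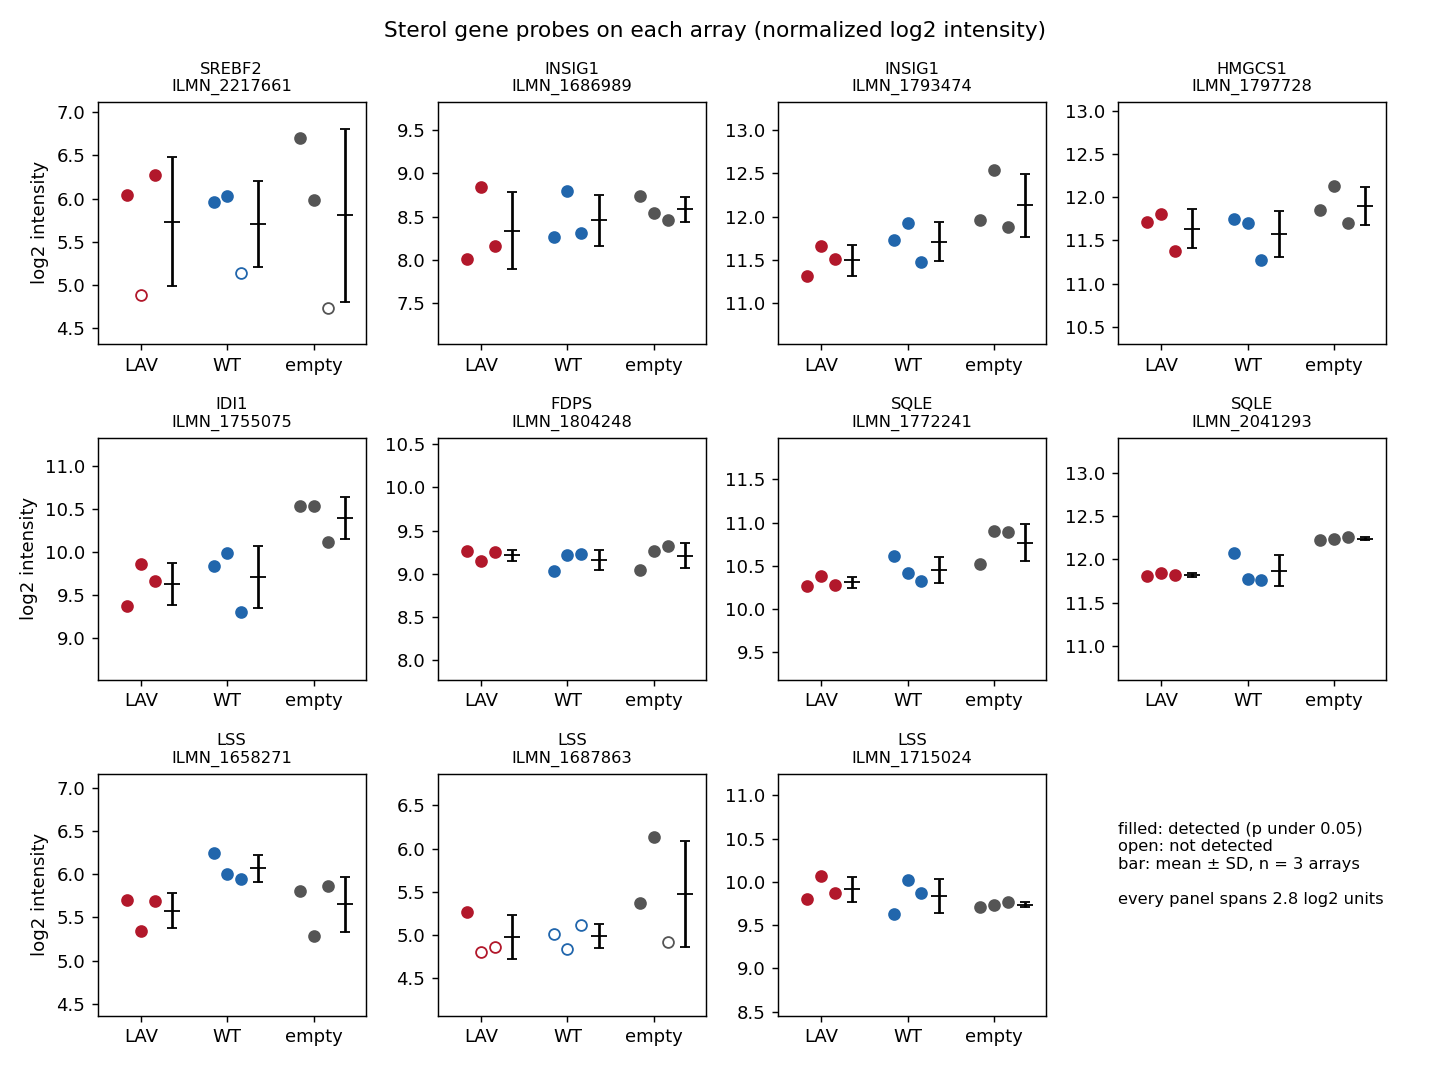
Normalized log2 intensity (vertical axis) of each of the 11 sterol gene probes on the 9 arrays, for LAV-BPIFB4 (red), WT-BPIFB4 (blue) and the empty vector (grey), in replicate order, with mean ± SD of 3 arrays as black bars and open circles where a probe was not detected. The LAV-BPIFB4 arrays lie below all empty vector arrays for IDI1, INSIG1 ILMN_1793474 and both SQLE probes, and the FDPS groups overlap.

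HMGCS1 makes the cytosolic synthase that joins acetyl-CoA and acetoacetyl-CoA at the head of the pathway. Its single probe read 11.71, 11.81 and 11.38 with LAV-BPIFB4, 11.75, 11.70 and 11.27 with WT-BPIFB4 and 11.85, 12.13 and 11.70 with the empty vector. The empty vector mean of 11.89 ± 0.22 was the highest, against 11.63 ± 0.23 with LAV-BPIFB4 and 11.58 ± 0.26 with WT-BPIFB4, but single arrays overlapped. Neither the change of -0.26 ± 0.14 with LAV-BPIFB4 (adjusted p = 0.281) nor that of -0.32 ± 0.14 with WT-BPIFB4 (adjusted p = 0.290) passed the test. With median scaling the LAV-BPIFB4 change had the opposite sign, 0.06.

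IDI1 makes isopentenyl diphosphate isomerase, which supplies the allylic starter unit of all isoprenoids. Its single probe read 9.37, 9.86 and 9.66 with LAV-BPIFB4, 9.84, 9.99 and 9.31 with WT-BPIFB4 and 10.53, 10.53 and 10.11 with the empty vector. All 6 arrays of BPIFB4-transfected cells lay below all 3 empty vector arrays, and the 2 forms of BPIFB4 overlapped. The mean was 9.63 ± 0.24 with LAV-BPIFB4, 9.71 ± 0.36 with WT-BPIFB4 and 10.39 ± 0.24 with the empty vector. IDI1 fell by 0.76 ± 0.17 on the log2 scale with LAV-BPIFB4 (adjusted p = 0.0107), while its change with WT-BPIFB4 was -0.68 ± 0.17 (adjusted p = 0.0573), just outside the threshold. The 2 comparisons share their 3 empty vector arrays. LAV-BPIFB4 and WT-BPIFB4 differed by -0.08 ± 0.17 (95% interval -0.44 to 0.27, adjusted p = 0.986). The LAV-BPIFB4 call was lost without LAV-BPIFB4 replicate 1 (adjusted p = 0.0754), without empty vector replicate 1 (0.0503) and with median scaling (log2 change -0.60, adjusted p = 0.297). The WT-BPIFB4 change was called without WT-BPIFB4 replicate 1 (-0.74, adjusted p = 0.0213) and with array weights (-0.59, adjusted p = 0.0351).

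FDPS makes farnesyl diphosphate synthase, which condenses the isoprene units into the precursor of sterols, ubiquinone and prenyl groups. Its probe was detected on all arrays, with means of 9.22 ± 0.064 for LAV-BPIFB4, 9.16 ± 0.11 for WT-BPIFB4 and 9.21 ± 0.14 for the empty vector. The arrays read 9.26, 9.14 and 9.25 with LAV-BPIFB4, 9.03, 9.22 and 9.23 with WT-BPIFB4 and 9.05, 9.26 and 9.32 with the empty vector. The 95% interval of the LAV-BPIFB4 change, -0.28 to 0.30, does not reach the change seen in IDI1 or INSIG1 ILMN_1793474. The interval for WT-BPIFB4 was -0.34 to 0.24.

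SQLE makes squalene epoxidase, the oxygen-dependent step that commits squalene to sterols and a known point of control. Its probe ILMN_2041293 read 11.81, 11.84 and 11.82 with LAV-BPIFB4, 12.08, 11.78 and 11.76 with WT-BPIFB4 and 12.23, 12.24 and 12.26 with the empty vector. The spread within the LAV-BPIFB4 arrays (SD 0.020) and within the empty vector arrays (SD 0.016) was small beside the difference between them. Among the WT-BPIFB4 arrays it was larger (SD 0.178). All 6 BPIFB4 arrays lay below the controls. The second probe, ILMN_1772241, read 10.27, 10.39 and 10.28 with LAV-BPIFB4, 10.61, 10.42 and 10.33 with WT-BPIFB4 and 10.52, 10.90 and 10.89 with the empty vector. LAV-BPIFB4 lay below the empty vector on every array there too, whereas WT-BPIFB4 overlapped the control. SQLE fell by 0.42 ± 0.11 and 0.46 ± 0.13 on the log2 scale with LAV-BPIFB4 at the 2 probes (adjusted p = 0.0205 and 0.0325). With WT-BPIFB4 the changes were -0.37 ± 0.11 and -0.32 ± 0.13 (adjusted p = 0.0923 and 0.232). The call of ILMN_2041293 was lost without LAV-BPIFB4 replicate 1, 2 or 3, or without empty vector replicate 1 or 3, at adjusted p values of 0.0756, 0.0568, 0.0883, 0.0519 and 0.0642. The call of ILMN_1772241 was lost without any 1 LAV-BPIFB4 array or without empty vector replicate 2 or 3 (adjusted p = 0.117, 0.0663, 0.128, 0.0941 and 0.121). Over the 9 sets that leave out 1 array the change stayed between -0.43 and -0.41 at ILMN_2041293 and between -0.58 and -0.40 at ILMN_1772241, while median scaling gave -0.10 and -0.26 (adjusted p = 0.894 and 0.715). The WT-BPIFB4 change at ILMN_2041293 was called without WT-BPIFB4 replicate 1 (-0.47, adjusted p = 0.00679).

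LSS makes lanosterol synthase, which closes the sterol ring system, and has 3 probes. ILMN_1715024, detected on all 9 arrays, read 9.80, 10.07 and 9.87 with LAV-BPIFB4, 9.63, 10.02 and 9.87 with WT-BPIFB4 and 9.71, 9.73 and 9.77 with the empty vector. There the LAV-BPIFB4 arrays lay above all controls, by 0.18 ± 0.13 in the fit (adjusted p = 0.451), a difference that did not pass the test. ILMN_1658271 read 5.70, 5.35 and 5.69 with LAV-BPIFB4, 6.25, 6.01 and 5.95 with WT-BPIFB4 and 5.80, 5.28 and 5.87 with the empty vector. It was the 1 probe on which all LAV-BPIFB4 arrays lay below all WT-BPIFB4 arrays, with a difference of -0.49 ± 0.26 (adjusted p = 0.972), where 10.1% of all probes showed no overlap between these groups, 4.85% lower and 5.24% higher. The third probe, ILMN_1687863, was near background, detected on 1 of 3 LAV-BPIFB4 arrays, 0 of 3 WT-BPIFB4 arrays and 2 of 3 empty vector arrays. Its means were 5.0 with WT-BPIFB4 and 5.48 with the empty vector, and these groups overlapped. The 95% interval of the change with WT-BPIFB4, -1.12 to 0.16, included 0 (limma adjusted p = 0.478). With WT-BPIFB4 values set no lower than the lowest detected level, the empty vector mean was 1.20-fold higher. No LSS probe was called in any comparison.

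**Figure D2:**
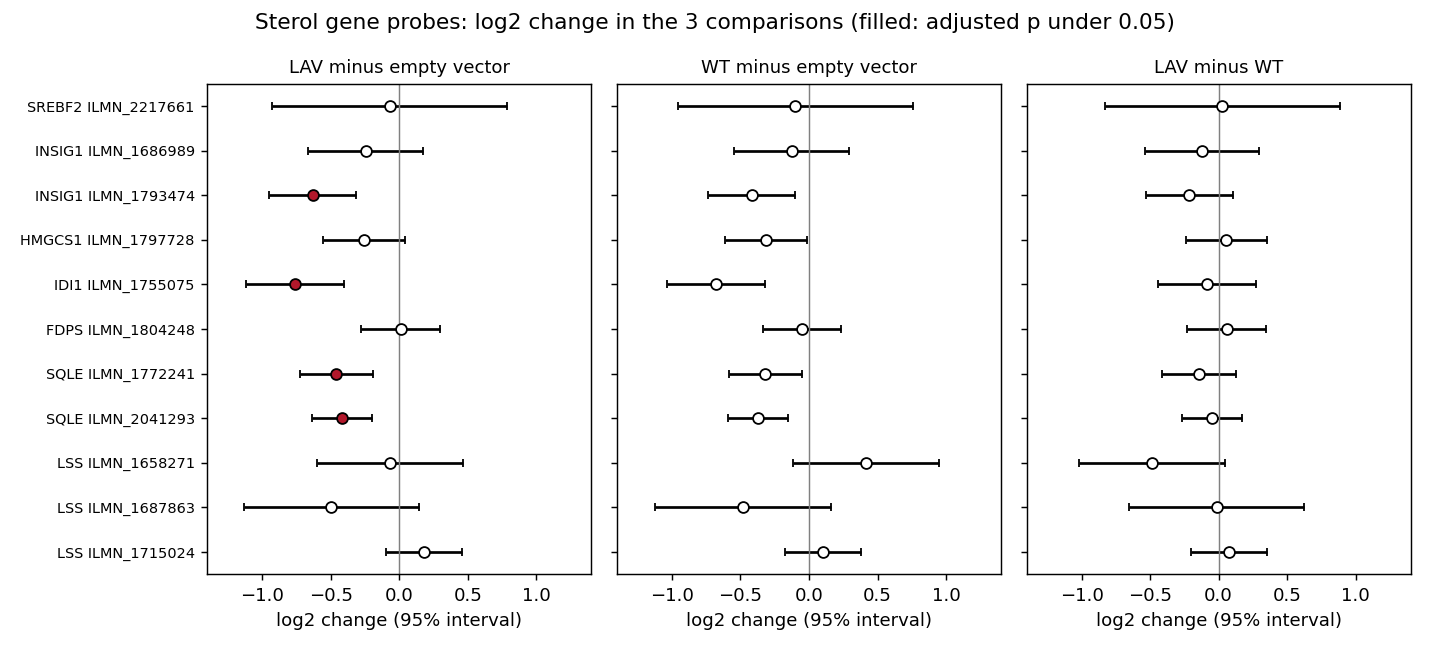
Log2 change (horizontal axis) of the 11 sterol gene probes in 3 comparisons, with 95% intervals from the fit and filled circles where the adjusted p was under 0.05. Filled circles are IDI1 at -0.76, INSIG1 ILMN_1793474 at -0.63 and the SQLE probes at -0.46 and -0.42 with LAV-BPIFB4 against the empty vector. All 11 intervals of LAV-BPIFB4 minus WT-BPIFB4 include 0.

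Over the 11 probes, 9 had a negative change with LAV-BPIFB4 and 9 with WT-BPIFB4. The median change was -0.26 with LAV-BPIFB4 and -0.32 with WT-BPIFB4, beside 0.0082 and 0.0047 over all tested probes. For LAV-BPIFB4 against WT-BPIFB4 the median was -0.05, with changes from -0.49 to 0.075, beside -0.0031 over all probes. The 11 probes measure 7 genes and are not independent of each other. Groups did not overlap at 5 probes for LAV-BPIFB4 against the empty vector (30.5% of all probes) and at 3 for WT-BPIFB4 against the empty vector (17% of all probes). With LAV-BPIFB4, 4 of these 5 were lower, against 15.9% of all probes lower without overlap and 14.7% higher. With WT-BPIFB4 2 of the 3 were lower, those of IDI1 and SQLE ILMN_2041293, against 8.67% of all probes, and the third, LSS ILMN_1658271, was higher, against 8.31%.

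The other 56 genes of the pathway and its branches were described as 5 lists, 47 of them with a tested probe, each gene by its probe with the highest mean. In these lists 5 genes fell with LAV-BPIFB4 and 0 rose, where 9.01% of all 11830 genes were called in either direction, 5.03% lower and 3.98% higher. With WT-BPIFB4 0 of 47 were called, where 1.3% of all genes were called (0.499% lower, 0.803% higher). At an unadjusted p under 0.05 there were 12 of the 47 with WT-BPIFB4 and 19 with LAV-BPIFB4, where 17.2% and 26.9% of all genes had such a p. Without WT-BPIFB4 replicate 1, 8 of the 47 were called with WT-BPIFB4, 3 lower and 5 higher. Calls over all 20914 probes then rose too, from 224 to 1587, of which 910 were lower and 677 higher. Between the 2 forms 0 of 47 were called, against 0% of all genes, with 4 at an unadjusted p under 0.05, against 3.8% of all genes. The median change of the 47 was -0.04 with LAV-BPIFB4 and -0.006 with WT-BPIFB4.

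Among genes that control SREBP or move cholesterol, 1 of 9 fell with LAV-BPIFB4, where 9.01% of all genes were called, 5.03% of them lower. That count is near the share of all genes. INSIG2, the second gene for an INSIG protein, read 7.84, 7.59 and 7.66 with LAV-BPIFB4, 7.84, 8.05 and 7.69 with WT-BPIFB4 and 8.49, 8.74 and 7.88 with the empty vector. The LAV-BPIFB4 arrays lay just below the lowest control, and WT-BPIFB4 overlapped it. INSIG2 fell 1.59-fold with LAV-BPIFB4 (adjusted p = 0.0454), a call that was lost in 10 of 19 alternatives. These include leaving out any 1 LAV-BPIFB4 array (adjusted p = 0.0845, 0.138 and 0.147), empty vector replicate 1 or 2 (0.142 and 0.178) or WT-BPIFB4 replicate 2 (0.0503).

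Fatty acid synthesis is driven mainly by SREBP1. Of its 10 measured genes 4 fell with LAV-BPIFB4 and 0 rose, where 5.03% of all genes were called lower and 3.98% higher. The median change of the 10 was -0.21. FASN, the fatty acid synthase gene, read 12, 12.40 and 12.28 with LAV-BPIFB4, 12.58, 12.50 and 12.55 with WT-BPIFB4 and 12.63, 13.08 and 12.67 with the empty vector. All LAV-BPIFB4 arrays lay below all WT-BPIFB4 arrays, which in turn lay below all controls. FASN fell 1.48-fold with LAV-BPIFB4 (adjusted p = 0.00904), its change with WT-BPIFB4 was -0.25 ± 0.12 (adjusted p = 0.331), and LAV-BPIFB4 minus WT-BPIFB4 was -0.32 ± 0.12 (adjusted p = 0.972). That call was kept in 16 of 19 alternatives and lost with median scaling, without the intensity trend and without LAV-BPIFB4 replicate 1 (adjusted p = 0.723, 0.112 and 0.0687). ACLY, which makes cytosolic acetyl-CoA, fell 1.37-fold, and its other tested probe also fell (log2 change -0.46). SCD, the stearoyl-CoA desaturase gene, fell 1.31-fold (adjusted p = 0.0428). ELOVL6, a fatty acid elongase gene, fell 1.42-fold with LAV-BPIFB4 (adjusted p = 0.0266), and its log2 change with WT-BPIFB4 was -0.51 ± 0.14 (adjusted p = 0.0725). Its other probe changed by -0.35 with LAV-BPIFB4 and was not called. SREBF1 itself differed by -0.04 ± 0.19 with LAV-BPIFB4 (adjusted p = 0.922). The ACLY call was lost without LAV-BPIFB4 replicate 1 or 3 or empty vector replicate 1 or 2 (highest adjusted p = 0.150), and the ELOVL6 call without LAV-BPIFB4 replicate 1 or 3 or empty vector replicate 2 or 3 (highest 0.164). The SCD call was lost without any 1 LAV-BPIFB4 array or empty vector replicate 2 or 3 (highest 0.171), and with median scaling its change was -0.04. The ACLY, ELOVL6 and SCD calls were each also lost with median scaling, the authors' value table, no probe filter and no intensity trend. Median scaling gave ACLY a limma adjusted p of 0.849. In all, ACLY and ELOVL6 were each not called in 8 of 19 alternatives, and SCD in 9.

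**Figure D3:**
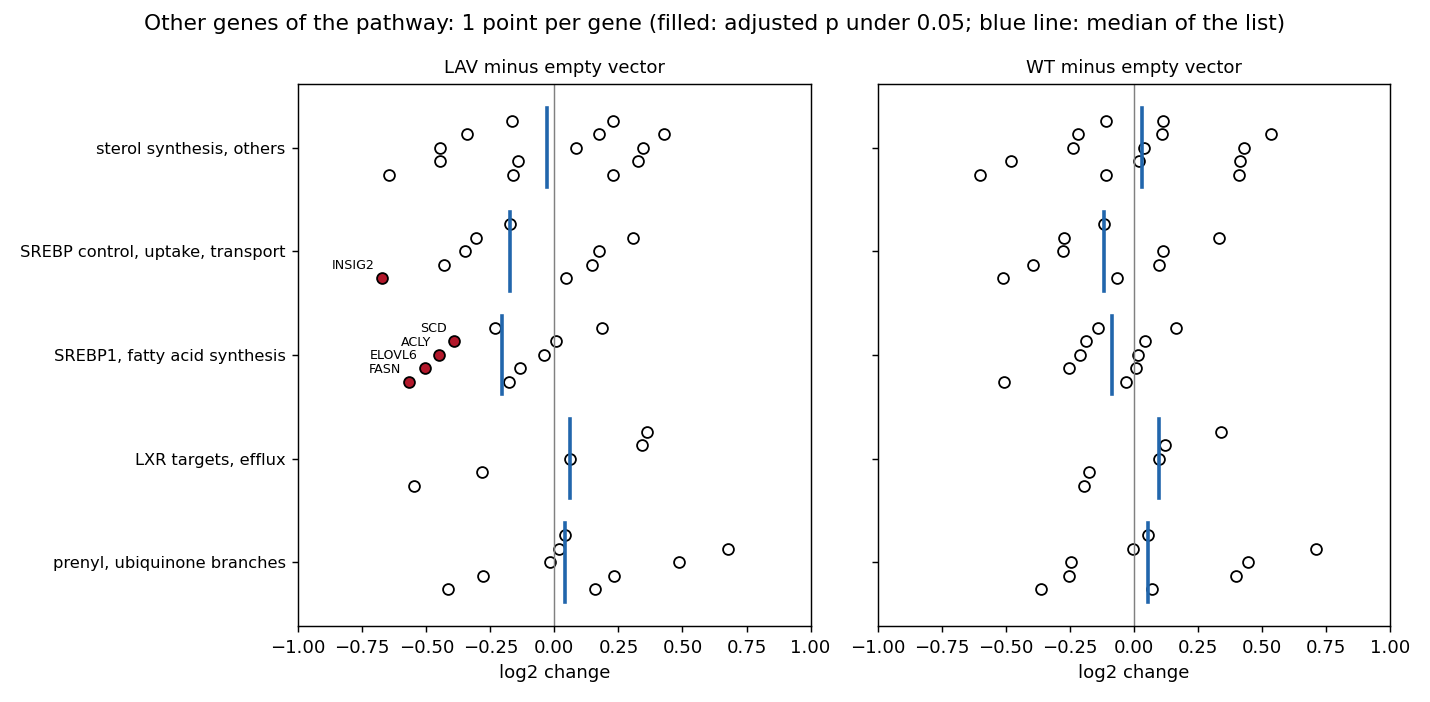
Log2 change (horizontal axis) of 47 other genes of the pathway in 5 lists, with LAV-BPIFB4 (left) and WT-BPIFB4 (right) against the empty vector, 1 circle per gene, filled where the adjusted p was under 0.05, and the median of each list as a blue line. The 5 filled circles are INSIG2, FASN, ELOVL6, ACLY and SCD with LAV-BPIFB4. The right panel has 0.

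The other steps of sterol synthesis had 14 measured genes. Of these 0 were called with LAV-BPIFB4 (5 at an unadjusted p under 0.05, where 26.9% of all genes had one), 7 had negative and 7 positive changes, and the median was -0.03. With WT-BPIFB4 0 were called and 6 had an unadjusted p under 0.05, where 17.2% of all genes had one. Over the 14 genes, 6 changes with WT-BPIFB4 were negative and 8 positive, with a median of 0.03. MSMO1, the C4 methyl sterol oxidase gene, averaged 10.08 ± 0.17 with LAV-BPIFB4, 9.94 ± 0.079 with WT-BPIFB4 and 10.42 ± 0.12 with the empty vector. Its change with WT-BPIFB4, -0.48 ± 0.13, had an adjusted p of 0.0690, and that with LAV-BPIFB4, -0.34 ± 0.13, one of 0.102. SC5D, the sterol C5 desaturase gene, differed by -0.45 ± 0.16 with LAV-BPIFB4 (adjusted p = 0.0839). In the other direction EBP, the sterol isomerase gene, averaged 10.75 ± 0.16 with WT-BPIFB4 and 10.34 ± 0.14 with the empty vector (adjusted p = 0.113), and TM7SF2, a sterol reductase gene, differed by 0.54 ± 0.19 with WT-BPIFB4 (adjusted p = 0.179).

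The LXR and efflux list had 0 of 5 genes called with LAV-BPIFB4 and 0 with WT-BPIFB4, with 2 and 0 at an unadjusted p under 0.05, where 26.9% and 17.2% of all genes had one. Changes with LAV-BPIFB4 were 0.34 ± 0.15 for LPCAT3, a phospholipid remodelling gene, -0.55 ± 0.26 for the cholesterol exporter gene ABCA1, 0.36 ± 0.18 for NR1H3, which encodes LXR alpha, and -0.28 ± 0.31 for the exporter gene ABCG1. Of 9 genes of the prenyl and ubiquinone branches 0 were called with either form, with 3 at an unadjusted p under 0.05 with LAV-BPIFB4 and 2 with WT-BPIFB4, near those shares of all genes. DHDDS, a subunit gene of the dolichol synthase, differed by 0.71 ± 0.20 with WT-BPIFB4 (adjusted p = 0.0829). FNTA, the shared alpha subunit of 2 prenyl transferases, differed by 0.49 ± 0.17 with LAV-BPIFB4 (adjusted p = 0.0844), and NUS1, the partner of DHDDS, by -0.41 ± 0.20 (adjusted p = 0.201). IDI2, a paralogue of IDI1, was detected on 2 of 3 LAV-BPIFB4 arrays and 0 of 3 empty vector arrays. Its means were 5.39 with LAV-BPIFB4 and 4.71 with the empty vector, a difference that did not pass the test (limma adjusted p = 0.173). With empty vector values set no lower than the lowest detected level, the LAV-BPIFB4 mean was 1.16-fold higher.

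The profiles of the called members over the 9 arrays were also set beside those of 11766 other genes, each centred on its own mean. The measure was the root mean square distance per array on the log2 scale, a description with no test, in which genes that follow the 3 groups alike come close. Nearest to IDI1 were LRP11 at 0.13 and SRGAP2 at 0.135, where the median gene lay at 0.466. Nearest to INSIG1 were PMEPA1 at 0.073 and KLF9 at 0.079, against a median of 0.403, and nearest to SQLE were USP47 at 0.045 and MSH6 at 0.051, against 0.313. LRP11 changed by -0.79 with LAV-BPIFB4 and -0.73 with WT-BPIFB4, and KLF9 by -0.74 and -0.39.

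**Figure D4:**
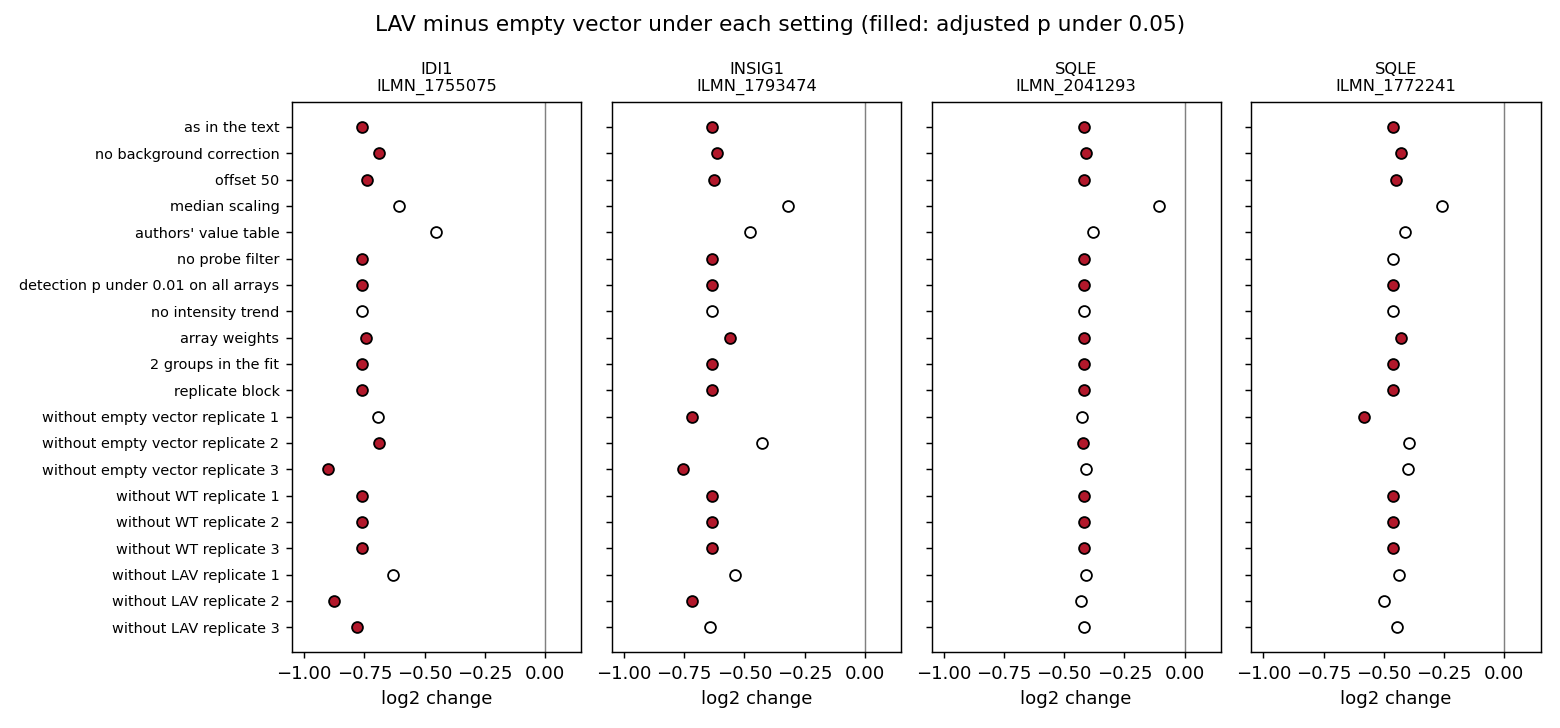
Log2 change with LAV-BPIFB4 against the empty vector (horizontal axis) of the 4 called sterol gene probes under the setting of the text and 19 alternatives (rows), filled where the adjusted p was under 0.05. Every point is below 0, and the circles are open for all 4 probes with median scaling, with the authors' value table, without the intensity trend and without LAV-BPIFB4 replicate 1.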

How the data were processed

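Per the labels, RNA purified on columns was amplified, marked with Cy3 and hybridized to Illumina bead arrays. For every array the deposited table without normalization holds 1 intensity and 1 detection p-value for each probe (per the file headers), exported from BeadStudio, per the submitters' processing notes (version not given). The authors' value table holds a second intensity on a linear scale whose normalization and centring are not given in the sources used here. Its empty vector and WT-BPIFB4 columns followed the labelled arrays (r of 1), while its LAV-BPIFB4 columns matched none of the 9 arrays (highest r 0.9943), so it serves as an alternative only.

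From these, neqc (limma 3.58.1, R 4.3.3) estimated the background through the detection p-values, added 16 and returned quantile-normalized log2 intensity. Of 47310 probes, 20914 with a detection p under 0.05 on at least 3 arrays were tested. All 9 arrays entered 1 fit of 3 group means (lmFit, eBayes with intensity trend), two-sided, adjusted by Benjamini-Hochberg over all tested probes. Symbols came from the platform's gene table (30105 probes with 1 symbol, 8 with several, 17197 with none), updated through gene IDs for names only. The number of arrays, 3 per group, limits the precision. The main fit did not take replicate numbers as pairs, since only 3 of 9 same-number correlations of deviations exceeded 0.1. The 9 ran from 0.001 to 0.216, however, against -0.15 to 0.066 for 18 different-number pairs, so a pairing is not excluded. With a replicate block, 3 of the 11 sterol probes and 829 probes in all were called with WT-BPIFB4. The 0 sterol calls with WT-BPIFB4 therefore depend on this choice. On simulated data the fit recovered 19.4% of 1.5-fold changes for LAV-BPIFB4 and 11.9% for WT-BPIFB4 against the empty vector. Between the 2 forms it recovered 16.4%. For 2-fold changes the shares were 50.8%, 56.7% and 47.8%, and 3.64% to 4.43% of the calls were false. A probe that was not called may therefore still have changed by such amounts.

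Named were all member probes, every called gene of the 5 other lists and the 4 genes with the smallest p in a list with none. The 2 nearest profiles of each called member, among genes outside the lists, were also named. Members and lists were chosen with earlier results of these data known. SREBF1 and SCAP, outside that rule, were chosen after their values were seen.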

Additional observations from a re-analysis of the deposited data

How the results depend on the processing

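Each result was recomputed with no background correction, an offset of 50, median scaling, the authors' value table, other probe filters, no intensity trend, array weights, 2 groups in the fit or a replicate block, and without each array in turn. For LAV-BPIFB4 against the empty vector, the 4 called sterol probes became 0 with median scaling, 0 with the value table and 0 without the intensity trend, and 0 to 4 when 1 array was left out (0 without LAV-BPIFB4 replicate 1, 1 without replicate 3, 2 without replicate 2 or any 1 empty vector array). The 5 other pathway genes, all lower, became 0 with median scaling, 1 with the value table, 1 with no probe filter and 0 without the trend. They became 8 with array weights (6 lower, 2 higher), 7 with the replicate block (6 lower, 1 higher) and 0 to 5 with 1 array left out. Without empty vector replicate 2 there were 2, 1 lower and 1 higher. For WT-BPIFB4 the 0 sterol probes became 2 with array weights and 3 with the replicate block (IDI1, adjusted p = 0.0067, INSIG1 ILMN_1793474, 0.0335, and SQLE ILMN_2041293, 0.0405), and 0 to 2 with 1 array left out (2 without WT-BPIFB4 replicate 1). The 0 other genes became 5 with array weights (2 lower, 3 higher) and 4 with the block (2 lower, 2 higher), and 0 to 8 with 1 array left out. For LAV-BPIFB4 against WT-BPIFB4 the counts were 0 under all 19 alternatives. No called change changed sign. The same-number arrays correlated at 0.001 to 0.22 in their deviations, 6 of 9 best with their own number in both other groups.

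Over all probes, the calls for LAV-BPIFB4 numbered 1615 in the setting used here, 243 (205 up, 38 down) with median scaling, 910 with the value table, 923 with no filter, 210 without the trend, 2962 with array weights, 2740 with the block and 495 to 2544 with 1 array left out. For WT-BPIFB4 they numbered 224, against 52, 194, 105, 31, 1120, 829 and 67 to 1587 in the same order, and 87 in the fit of 2 groups. Median scaling moved the median LAV-BPIFB4 change of all tested probes to 0.082 and that of the 5229 brightest to 0.211, against -0.173 for the sterol probes, and the median of LAV-BPIFB4 minus WT-BPIFB4 to 0.129, against 0.071 for the sterol probes.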

Other observations

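The LAV-BPIFB4 columns of the authors' value table matched none of the 9 non-normalized arrays, so they hold values used only in the value table alternative above. The empty vector columns are those of the same arrays (r of 1), so they are not separate controls. After quantile normalization, INSIG1 ILMN_1793474 read 11.59, 11.92 and 11.73 in these LAV-BPIFB4 columns and 12.06, 12.63 and 11.99 in the empty vector columns. These are log2 intensities to which no further background correction was applied here. SQLE ILMN_2041293 read 11.85, 12.01 and 11.996 there, against 12.32, 12.33 and 12.35 with the empty vector, again without overlap. IDI1 read 9.88, 10.54 and 9.93, against 10.69, 10.70 and 10.31, and overlapped. The changes were -0.48, -0.38 and -0.45, and none passed the test (limma adjusted p = 0.0750, 0.0503 and 0.143). The share of all probes without overlap in these columns is not given here. The column of LAV-BPIFB4 replicate 1 correlated best with the array of WT-BPIFB4 replicate 3 (r 0.9943, against 0.9852 with its own array). Which cells the LAV-BPIFB4 columns come from is known only through their label.

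SCAP, the escort of SREBP2, averaged 10.87 ± 0.099 with LAV-BPIFB4, 11.16 ± 0.25 with WT-BPIFB4 and 11.22 ± 0.33 with the empty vector, and neither change against the empty vector passed the test (adjusted p = 0.159 and 0.871). ELOVL6 averaged 9.24 ± 0.17 with LAV-BPIFB4 and 9.24 ± 0.063 with WT-BPIFB4, against 9.74 ± 0.10 with the empty vector. LAV-BPIFB4 minus WT-BPIFB4 was -0.28 ± 0.15 for SCAP and 0.002 ± 0.14 for ELOVL6, neither past the test (limma adjusted p = 0.972 and 0.9995).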
